A study of Mus musculus and Rattus norvegicus with 21 samples.

Results

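The cytosolic ribosomal protein (RP) genes encode the proteins of the translating ribosome of the cytoplasm. They were taken here as every protein-coding mouse gene whose symbol is Rpl or Rps followed by digits, with an optional a, x or l, without the Rps6k kinase genes, together with Rplp0, Rplp1, Rplp2 and Rpsa. In the curated RefSeq annotation of GRCm38, the assembly also called mm10, 82 of 21000 protein-coding genes met this rule. They comprised 31 genes of the small subunit (the Rps genes and Rpsa), 48 genes of the large subunit and the 3 Rplp genes of its lateral stalk. Rps3a1, Rpl22l1 and Rpl7l1 fell outside the rule because their symbols end in a digit, and they are mentioned beside the counts of each mark and factor.

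Chromatin immunoprecipitation followed by sequencing had been carried out on thyroid glands of C57BL/6 mice labelled as 1 month old. H3K4me3 and H3K27me3 were mapped in 4 groups, namely Glis3KO-LID, WT-LID, Glis3KO-ND and WT-ND, with 1 library per mark and group. Glis3KO mice lack the transcription factor (TF) GLIS3 and carry the genotype label B6.Glis3<tm2(mCherry)Amj>, whereas the study's methods write tm3 for this allele. The LID is a low iodine diet and the ND is the NIH-31 normal diet. The TFs NKX2.1 and PAX8 were mapped by 1 library each in thyroids labelled WT on the LID. The study's methods describe the animals of the TF experiments differently, as older Glis3-EGFP mice that make a GLIS3-EGFP fusion protein and were kept longer on the LID. Comparisons of TF peaks with histone peaks may therefore be between different mice. Whether glands were pooled is not stated.

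Ribosomal proteins are made in near equal numbers in every growing cell, and their genes belong to the most actively transcribed of the genome. Many RP mRNAs begin with a cytosine followed by a run of pyrimidines, the 5′ terminal oligopyrimidine (TOP) tract, through which mTOR signalling adjusts their translation. H3K4me3 marks the promoters of active genes and H3K27me3 is placed by Polycomb repressive complexes on silent ones. NKX2.1 and PAX8 are TFs that thyroid follicular cells need for their development and for thyroid hormone synthesis.

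The H3K4me3 lists held between 15692 and 17044 peaks. The H3K27me3 lists held between 2631 and 4116 peaks except that of Glis3KO-LID, which held 18040 and stood apart. The NKX2.1 and PAX8 lists held 46636 and 51586 peaks of 300 bp each, more than the peak numbers in the study's text, and the TF shares below refer to these longer lists. No list carried a score and the number of reads behind it is unknown, so each value below is a position or a width and has no error. With no replicate, no difference between groups could be set against a spread between animals. As a check of the tissue, 10 of 12 follicular cell markers carried H3K4me3 within 1 kb of a start site in all 4 libraries, against 0 of 6 immune, 0 of 5 skeletal muscle, 0 of 3 parathyroid, 1 of 5 C cell, 1 of 5 fibroblast and 2 of 4 endothelial markers.

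The RP genes lay on 19 chromosomes, 14 of them on chromosome 7 and 4 on chromosome X. They were short, with a median length of 3170 bp against 17742 bp for all protein-coding genes. A small nucleolar RNA (snoRNA) gene, most of which guide the modification of ribosomal RNA, lay inside 29 RP genes (35.4%) against 1.07% of all genes. A single curated start site was annotated for 69 of the 82 genes. In 12 genes (14.6%) the main start site of another gene, that of its RefSeq Select transcript, lay within 1 kb. The share was close to the 14.8% of all genes with H3K4me3 in the 4 libraries. Other annotated starts of neighbours were not counted. Rps27, which has an annotated start of Rab13 within 1 kb, was thus not among the 12. All 12 neighbours were on the opposite strand, such as Ndufa7 at 10 bp upstream of Rps28 and Lias at 66 bp upstream of Rpl9.

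The start of transcription is shown first, because the TOP tract sits there. Each of the 30-base windows printed here holds 10 bases before and 20 bases from the annotated start. Capitals mark the tract from that start on, and pyrimidines just before the start stay in lower case. Rps6 encodes the substrate of the S6 kinases and Rplp2 a stalk protein. Rpl5, whose product carries 5S RNA into the large subunit, is shown as a gene with no such tract at its annotated start.
Rps6 (chr4:86857348-86857377, minus strand): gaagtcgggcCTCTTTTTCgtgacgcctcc
Rplp2 (chr7:141447641-141447670, plus strand): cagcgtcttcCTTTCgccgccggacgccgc
Rpl5 (chr5:107900518-107900547, plus strand): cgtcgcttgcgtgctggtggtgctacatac
A cytosine followed by at least 4 pyrimidines stood exactly at the annotated start of 14 of 82 RP genes (17.1%), against 2.23% of all protein-coding genes and 2.31% of those with H3K4me3 in all 4 libraries. The base before the start was not considered in this count, so the pyrimidine run could begin upstream, as at Rps6 and Rplp2. Within 20 bases of the start such a tract, beginning after a purine, was found in 51 RP genes (62.2%) and in 41% of all genes. The 14 are not all among these 51, since Rplp2 and Rpl38 had no tract that begins with a cytosine after a purine. The starts were those of the annotation and were not measured here.

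Promoters were read from 250 bases before to 50 bases after the start. Their median GC content was 56.7% in RP genes, against 62.7% in genes with H3K4me3 in all 4 libraries and 57% in all protein-coding genes. Of the motifs searched on both strands, TCTCGCGA had the largest ratio, with 13 RP genes (15.9%) against 2.36% of marked genes and 1.48% of all genes. CCGGAAG, the core that ETS factors bind, occurred in 31 RP genes (37.8%) against 18.9% of marked genes and 12.2% of all genes. GGGCGG, the core of the Sp1 box, went the other way among marked genes, with 58.5% of RP genes against 71.1%. TGACGTCA, the cyclic AMP response element, was present in 6 RP genes (7.32%) against 3.8% of marked genes. AAGATGGC, the core of the YY1 motif, was present in 5 RP genes (6.1%) against 4.8%, and CACGTG, the E-box, in 7 (8.54%) against 10.3%. The letters CACTTG and CTCAAG, used here for NKX2.1, were found in 9.76% and 11% of RP promoters. They were found in 10.1% and 12.8% of marked genes and in 13% and 14.8% of all promoters. GTCATG, used here for PAX8, was found in 11% of RP promoters, against 5.6% of marked genes and 8.15% of all promoters. A match is a description of the letters and not a binding site.

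The TCTCGCGA sites are printed because their share in RP promoters had the largest ratio to that in other promoters. Of the 14 sites 7 are shown. Capitals mark the element, which is the full palindrome TCTCGCGAGA in 7 of the 14 sites. Each line gives the gene, the window on its own strand and the sequence.
Rps6 (chr4:86857401-86857426, minus strand): ccggctgtTCTCGCGAGAacttagag
Rps19 (chr7:24884576-24884601, plus strand): ctccgaaaTCTCGCGAGActcgacgc
Rps28 (chr17:33824546-33824571, minus strand): gcgtgcggTCTCGCGAGAgcgaaagt
Rpl12 (chr2:32961650-32961675, plus strand): ccagcggtTCTCGCGAGAgctgagct
Rpl26 (chr11:68901532-68901557, plus strand): tccgagacTCTCGCGAGAtctcgcgg
Rpl7a (chr2:26910747-26910770, plus strand): gcgcctgcTCTCGCGAtatctgcg
Rps15a (chr7:118116198-118116221, minus strand): ccatgaagTCTCGCGAtagcgctt
Of the 14 sites, 12 began within 100 bp upstream of the annotated start, and the farthest was that of Rpl35 at -189 bp. The element was spread over both subunits, with 6 Rps and 7 Rpl genes. In Rps19, a gene mutated in Diamond-Blackfan anaemia, it occurred at -27 and again at -8 bp. An NKX2.1 peak lay within 1 kb of 4 of these 13 genes and a PAX8 peak within 1 kb of 3, while 6 had neither. Over all 82 RP genes the shares with NKX2.1, PAX8 and neither were 39, 40.2 and 41.5%. The element was found in 12.5% of RP genes with NKX2.1, 9.09% with PAX8 and 17.6% with neither. Over all RP genes its share was 15.9%, and these differences of few genes were not tested.

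H3K4me3 was measured to see how broad the active mark is at these promoters. A peak lay within 1 kb of a start site of 78 of the 82 RP genes (95.1%) in each of the 4 libraries, and the 78 genes were the same ones each time. Over all protein-coding genes the share was 60% in Glis3KO-LID, 62.9% in WT-LID, 62.5% in Glis3KO-ND and 62.2% in WT-ND, and 56.6% of genes were marked in all 4. All 31 small subunit genes, all 3 stalk genes and 44 of 48 large subunit genes carried the mark. This near complete marking was shared with other housekeeping groups, among them mitochondrial RP genes (74 of 78 in all 4 libraries), TOP translation factors (20 of 21), ribosome assembly factors (29 of 30), proteasome subunits (31 of 31) and respiratory chain subunits (36 of 37).

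The 4 RP genes without H3K4me3 in any library were Rpl3l, Rpl10l, Rpl39l and Rpl32l. Rpl3l is the paralog of Rpl3 used in striated muscle, and Rpl10l and Rpl39l are paralogs of Rpl10 and Rpl39 used in the testis. Their parent genes Rpl3, Rpl10, Rpl39 and Rpl32 were all marked in the 4 libraries. Rps27l and Rpl36al, paralogs expressed in many tissues, were marked as well. Outside the rule, Rps3a1 (1107 to 1284 bp covered within 1 kb), Rpl22l1 (1149 to 1274 bp) and Rpl7l1 (1293 to 1674 bp) were marked in all 4 libraries, whereas Rps27rt, whose symbol ends in rt, had 0 covered bases in each.

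Width was taken as the number of bases covered by a peak within 1 kb either side of the main start site, which is that of the RefSeq Select transcript. The median over the 78 marked RP genes was 1368 bp in Glis3KO-LID, 1673 bp in WT-LID, 1560 bp in Glis3KO-ND and 1639 bp in WT-ND. Over the 11887 genes marked in all 4 libraries the medians were 1329, 1521, 1460 and 1479 bp in the same libraries. Of the 78 RP genes, 41 in Glis3KO-LID (52.6%), 48 in WT-LID (61.5%), 41 in Glis3KO-ND (52.6%) and 46 in WT-ND (59%) exceeded the median of the marked genes. Among the marked genes themselves the share was 50%. The median of RP genes was thus higher in each library, by 38.5 to 160 bp, but in both Glis3KO libraries the share above was near 50%. The comparison genes were marked at any start site, and 143 to 165 of them per library (1.2 to 1.39%) had 0 covered bases at the main one. The lowest value of the 78 RP genes was 738 bp. The effect of this on the medians was not tested. The quartiles of RP genes overlapped broadly with those of other marked genes. Small subunit genes had medians of 1316, 1707, 1449 and 1560 bp and marked large subunit genes of 1471, 1631, 1569 and 1658 bp in Glis3KO-LID, WT-LID, Glis3KO-ND and WT-ND.

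**Figure D1:**
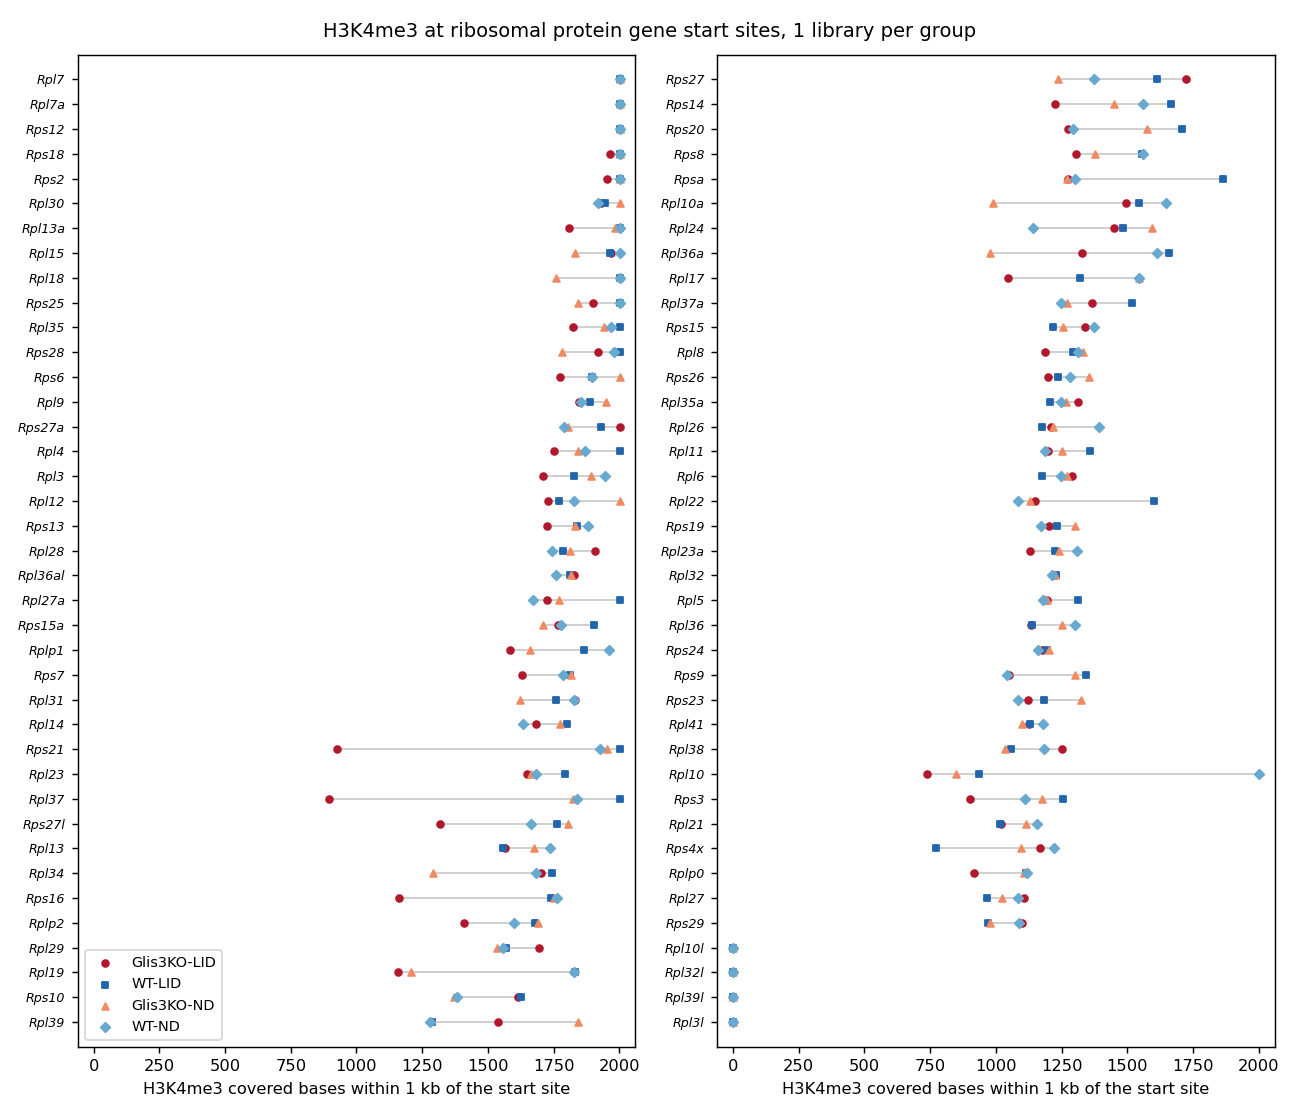
Covered bases of H3K4me3 within 1 kb either side of the main start site (x axis, bp) for 78 of the 82 RP genes (y axis, ordered by the mean of the 4 libraries, upper part on the left). Each point is 1 library and the grey line spans the lowest to the highest, with Rpl7, Rpl7a and Rps12 at the full window in all 4 and Rpl10l, Rpl32l, Rpl39l and Rpl3l at 0 bp.

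The covered bases of RP genes fell into a lower and an upper group with few genes between. Between 1400 and 1599 bp there were 6 RP genes in Glis3KO-LID, 6 in WT-LID, 5 in Glis3KO-ND and 4 in WT-ND. That is 7.32, 7.32, 6.1 and 4.88% of the 82, against 11.8, 13.7, 13.4 and 13.7% of the genes marked in all 4 libraries. The dip was not particular to RP genes. Among marked genes too this range held fewer genes than the ranges on either side in each library. In WT-LID these held 19.2% (1200 to 1399 bp) and 16.4% (1600 to 1799 bp) of marked genes. The lower shares of RP genes rest on few genes and were not tested. The 12 genes with a neighbour's main start site within 1 kb lay mostly in the upper group. Their medians were 1909, 1983, 1837 and 1925 bp in Glis3KO-LID, WT-LID, Glis3KO-ND and WT-ND. The other 66 marked RP genes had medians of 1297, 1585, 1363 and 1559 bp. The mark of a neighbour and that of the RP gene cannot be told apart in a shared peak.

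Rpl7, Rpl7a and Rps12 were covered over the whole window in every library. Rpl7 had the longest of these peaks, of 3798 bp in Glis3KO-LID, 3899 bp in WT-LID, 3347 bp in Glis3KO-ND and 3904 bp in WT-ND. Rps12 had no main start site of another protein-coding gene within 1 kb. Its peaks were 2625 bp in Glis3KO-LID, 2818 bp in WT-LID, 2456 bp in Glis3KO-ND and 2450 bp in WT-ND. These 3 genes stayed at the maximum of the measure whatever the genotype and diet. Rps18 and Rps2 followed, with 1963 and 1953 bp in Glis3KO-LID and the full window in each of the other 3 libraries.

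At the other end of the marked genes, Rps29 had 1099 bp in Glis3KO-LID, 969 bp in WT-LID, 977 bp in Glis3KO-ND and 1087 bp in WT-ND. Rpl27 had 1105, 967, 1025 and 1085 bp in the same order of libraries. Rplp0, the stalk protein whose mRNA is a common reference in PCR assays, had 915 bp in Glis3KO-LID, 1114 bp in WT-LID, 1108 bp in Glis3KO-ND and 1117 bp in WT-ND. Each of these 3 genes had few covered bases in all 4 libraries. No peak lay over the main start site of Rps29 in WT-LID and Glis3KO-ND, nor over that of Rpl27 in WT-LID. Rps4x, the X-linked copy of the small subunit protein eS4, ranged from 771 bp in WT-LID to 1221 bp in WT-ND, and Rpl21 from 1016 bp in WT-LID to 1156 bp in WT-ND.

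Genes studied for their roles beyond the ribosome were spread over this range. Rps6 had 1774 bp in Glis3KO-LID, 1897 bp in WT-LID, the full window in Glis3KO-ND and 1897 bp in WT-ND. Rps27a, which encodes a fusion of ubiquitin and eS31, had the full window in Glis3KO-LID, 1930 bp in WT-LID, 1803 bp in Glis3KO-ND and 1788 bp in WT-ND. Both were wide in all 4 groups. Rpl5 and Rpl11, whose products bind Mdm2 together with 5S RNA when ribosome assembly fails, both had fewer covered bases. Rpl5 had 1196 bp in Glis3KO-LID, 1312 bp in WT-LID, 1196 bp in Glis3KO-ND and 1178 bp in WT-ND. Rpl11 had 1197, 1356, 1251 and 1185 bp in these libraries. In both genes WT-LID was the highest and the other 3 libraries were close together. Rps19 stayed between 1170 and 1300 bp. Rps14, the gene deleted in 5q minus syndrome in humans, had 1226 bp in Glis3KO-LID, 1666 bp in WT-LID, 1449 bp in Glis3KO-ND and 1560 bp in WT-ND. Rpsa, also known as the laminin receptor, had 1275, 1862, 1269 and 1301 bp, so that WT-LID alone was high. The 18 genes mutated in Diamond-Blackfan anaemia had medians of 1342, 1334, 1320 and 1379 bp in Glis3KO-LID, WT-LID, Glis3KO-ND and WT-ND.

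The edges of the peak were measured separately on each side. Downstream of the start site the median edge of RP genes lay at 1156 bp in Glis3KO-LID, 1290 bp in WT-LID, 1182 bp in Glis3KO-ND and 1212 bp in WT-ND, against 999, 1116, 1057 and 1074 bp for marked genes. Upstream the median edges were at 415, 713, 606 and 653 bp against 522, 633, 605 and 620 bp. The peak reached farther downstream than upstream in 89.5, 89.3, 86.5 and 87.2% of RP genes whose start site lay inside a peak, against 80.3, 80.9, 80.5 and 80.5% of marked genes. At 1000 bp downstream 69.2% of the 78 RP genes were covered in Glis3KO-LID, 89.7% in WT-LID, 85.9% in Glis3KO-ND and 82.1% in WT-ND, against 49.2, 61.5, 55.5 and 57.1% of marked genes. At 1500 bp upstream between 1.28 and 2.56% of RP genes were covered, against 6.26 to 7.94% of marked genes. At 1500 bp downstream RP genes were higher in WT-LID and lower in the other 3 libraries, with 8.97, 24.36, 15.4 and 20.5% of RP genes against 16.45, 22.45, 19.3 and 21.4% of marked genes.

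**Figure D2:**
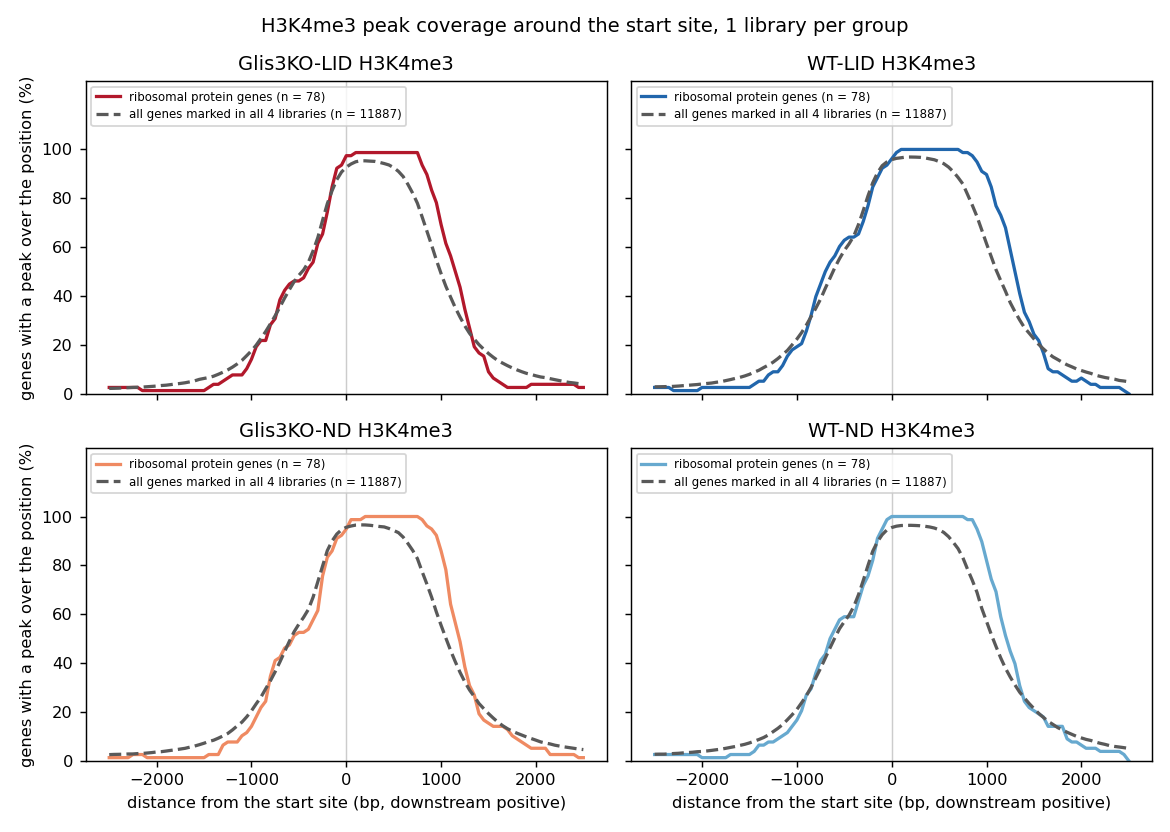
Share of genes with an H3K4me3 peak over each position (y axis, %) against the distance from the main start site (x axis, bp, downstream positive), in 1 panel per library. Coloured lines are the 78 marked RP genes and dashed lines the 11887 genes marked in all 4 libraries, and at 1000 bp downstream the RP genes are higher in every panel (69.2, 89.7, 85.9 and 82.1% against 49.2, 61.5, 55.5 and 57.1%).

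Because RP genes are short, the peak covered a large part of the transcribed region. From the start site to the gene end the peak spanned a median of 37.5% of the gene in Glis3KO-LID, 41.8% in WT-LID, 39.9% in Glis3KO-ND and 43.8% in WT-ND, against 3.92 to 4.52% in marked genes. At Rpl41 and Rpl36 the peak ran past the annotated end of the gene in all 4 libraries. Rps27 did so in 3 libraries and Rplp1 in 2. Rpl41 encodes the smallest ribosomal protein.

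Genotype was compared within each diet, to see whether loss of GLIS3 went with a change of the mark at these genes. On the LID 54 of 78 RP genes (69.2%) had fewer covered bases in Glis3KO-LID than in WT-LID, beside a background of 65.2% over all genes marked in both libraries, and 20 had more, beside 26.5%. The median difference was -56 bp for RP genes and -88 bp for all genes. On the ND 41 RP genes (52.6%) had fewer covered bases in Glis3KO-ND than in WT-ND, beside 47.8% of all genes, and 32 had more, beside 43%, with a median difference of -10.5 bp for RP genes and 0 bp for all genes. These shares lay near the background on both diets. Between the diets, Glis3KO-LID had fewer covered bases than Glis3KO-ND in 45 RP genes (57.7%), beside 60.2% of all genes, and more in 29, beside 31.8%, with medians of -50 and -47 bp. WT-LID had more than WT-ND in 39 RP genes (50%), beside 49.4%, and fewer in 30, beside 40.7%, with medians of 2 and 0 bp. The comparisons between diets share libraries with those between genotypes, and in a whole gland a change in the mix of cells cannot be told apart from a change of the mark in each cell.

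Glis3KO-LID was the lowest library alone in 32 of the 78 genes, against 11 for WT-LID, 15 for Glis3KO-ND and 17 for WT-ND. These were 41, 14.1, 19.2 and 21.8% of RP genes, close to the 42.8, 13, 18.5 and 18.6% of all genes marked in the 4 libraries. Its H3K4me3 list also covered the least sequence, 22.56 Mb against 25.44 to 26.73 Mb in the other 3 libraries, and depth could not be checked. The range over the 4 libraries had a median of 205.5 bp per RP gene, against 272 bp per marked gene, and reached 600 bp or more in 7 RP genes (8.97%) against 13.7% of marked genes.

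In 27 RP genes (34.6%) covered bases were fewer in Glis3KO on both diets, beside 33% of genes marked in all 4 libraries, and in 7 (8.97%) they were more on both, beside 12.2%. Among the losses Rpl19, a large subunit gene, had 1157 bp in Glis3KO-LID and 1209 bp in Glis3KO-ND, against 1830 bp in WT-LID and 1826 bp in WT-ND. Both Glis3KO libraries were low here and the WT libraries agreed within 4 bp. Rpl36a, the X-linked gene of eL42, had 1328 bp in Glis3KO-LID and 976 bp in Glis3KO-ND, against 1660 bp in WT-LID and 1612 bp in WT-ND. Rpl10, the X-linked gene of uL16, had 738 bp in Glis3KO-LID and 847 bp in Glis3KO-ND, against 936 bp in WT-LID and the full window in WT-ND. At Rpl10 the WT-ND library alone was high, and the size of the difference on the ND rested on it. Rpl37 had 896 bp in Glis3KO-LID and 1825 bp in Glis3KO-ND, against the full window in WT-LID and 1838 bp in WT-ND. Rpl10a had 1493 bp in Glis3KO-LID and 987 bp in Glis3KO-ND, against 1544 bp in WT-LID and 1645 bp in WT-ND. At Rpl37 and Rpl10a 1 Glis3KO library was low on 1 diet and the other diet showed little difference. No peak lay over the main start site of Rpl10 in Glis3KO-LID, WT-LID and Glis3KO-ND. The same held for Rpl37 in Glis3KO-LID and for Rpl36a and Rpl10a in Glis3KO-ND. In these cases the covered bases came from peaks beside the start site.

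Among the gains Rpl39, an X-linked gene of the exit tunnel protein eL39, had 1540 bp in Glis3KO-LID and 1844 bp in Glis3KO-ND, against 1286 bp in WT-LID and 1281 bp in WT-ND. The Glis3KO values were above both WT values at Rpl39. The other gains were smaller, among them differences of 121 and 70 bp at Rpl28, 113 and 21 bp at Rpl6 and 108 and 18 bp at Rpl35a on the LID and the ND. With 1 library per group, none of these differences was tested.

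**Figure D3:**
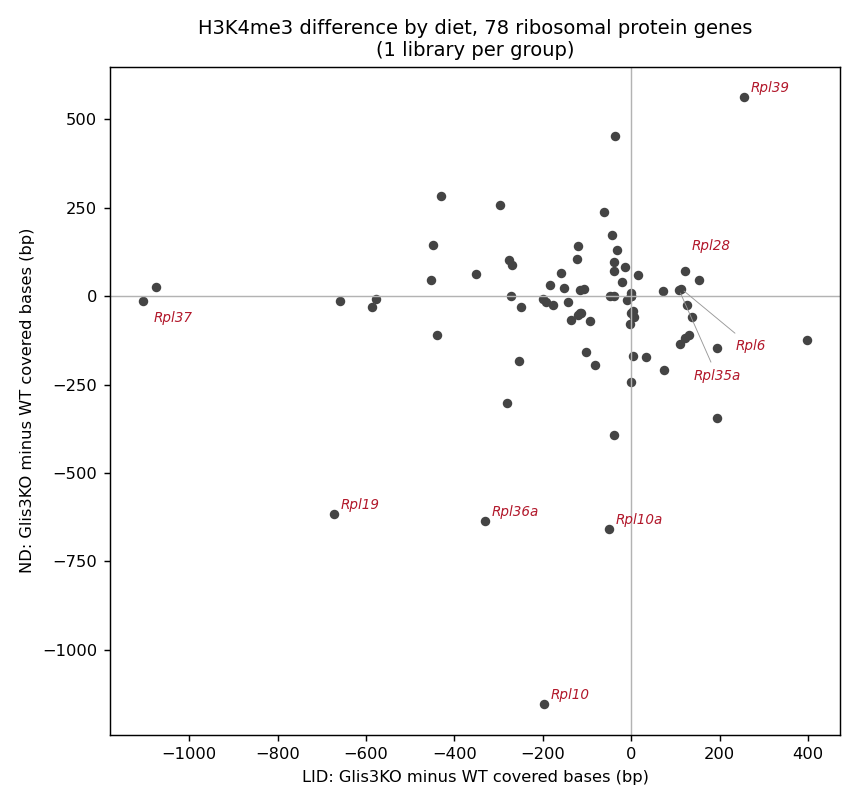
Covered bases in Glis3KO minus WT on the LID (x axis, bp) and on the ND (y axis, bp), 1 point for each of the 78 marked RP genes, with the 5 largest losses and 4 of the 5 largest gains seen on both diets named. Most points lie near 0 on the ND, and Rpl19 lies far below 0 on both axes at -673 and -617 bp.

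H3K27me3 was examined as the opposite mark. Only 1 of 82 RP genes had an H3K27me3 peak within 1 kb of a start site in Glis3KO-LID and 0 of 82 in WT-LID, Glis3KO-ND and WT-ND. Over all protein-coding genes the shares were 17.4% in Glis3KO-LID, 6.5% in WT-LID, 8.67% in Glis3KO-ND and 6.43% in WT-ND. Among genes with H3K4me3 in all 4 libraries they were 15.7, 6.48, 8.28 and 6.34%, so RP genes were below other active genes in each library. In the long Glis3KO-LID list 3 of 78 mitochondrial RP genes (3.85%) had such a peak, and 0 of 21 TOP translation factors, 0 of 30 ribosome assembly factors, 0 of 31 proteasome subunits and 0 of 37 respiratory chain subunits. Low shares were thus common to these housekeeping groups.

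The exception was Rpl38, a large subunit gene whose loss alters axial patterning in mice. Its H3K27me3 peak in Glis3KO-LID (chr11:114662936-114668268, 5333 bp) ended 312 bp upstream of the main start site and covered 689 bp of the window. The H3K4me3 values of Rpl38 were 1251 bp in Glis3KO-LID, 1058 bp in WT-LID, 1034 bp in Glis3KO-ND and 1181 bp in WT-ND, so the library with the H3K27me3 peak was the one with the most H3K4me3 covered bases. Among only the 2631 widest peaks of Glis3KO-LID, as many as the WT-LID list held, the Rpl38 peak was still present, and 7.5% of all genes were marked.

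Within 5 kb 9 RP genes had an H3K27me3 peak in Glis3KO-LID, among them Rpl14, Rpl17, Rpl23, Rpl34, Rpl38, Rps3, Rps4x and Rps15. This was 11% of the 82, against 22.9% of all protein-coding genes and 21% of marked genes. In Glis3KO-ND it was Rps15 alone (1.22%, against 10.6% of all and 10.2% of marked genes). In WT-LID and WT-ND there were 0, against 7.56 and 7.88% of all genes and 7.55 and 7.73% of marked genes. At Rps15 the peak was 22599 bp long in Glis3KO-LID and 3567 bp in Glis3KO-ND and stayed 3564 and 4446 bp from the start site. The nearest H3K27me3 peak was at a median distance of 28008 bp in Glis3KO-LID, 215038 bp in WT-LID, 134870 bp in Glis3KO-ND and 174052 bp in WT-ND, against 46522, 313640, 208692 and 272718 bp for all protein-coding genes. RP genes therefore were not far from H3K27me3 regions on this scale, although the peaks did not reach their start sites. The paralogs Rpl3l, Rpl10l, Rpl39l and Rpl32l had neither mark in any library. Rps3a1, Rpl22l1 and Rpl7l1 had no H3K27me3 peak within 1 kb either.

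NKX2.1 and PAX8 peaks were then counted at the same start sites, to see how far TFs of the thyroid programme occupied housekeeping promoters. An NKX2.1 peak lay within 1 kb of 32 RP genes (39%), beside 21.1% of all protein-coding genes and 31.5% of those with H3K4me3 in all 4 libraries. A PAX8 peak lay within 1 kb of 33 RP genes (40.2%), beside 29.2% of all genes and 45.3% of marked genes. The shares lay near those of marked genes for both factors. Both factors were present at 17 RP genes (20.7%), beside 12% of all and 18.2% of marked genes, and the peaks overlapped at 13 (15.9%), beside 8.22 and 11.9%. NKX2.1 alone was present at 15 RP genes (18.3%, against 9.02% of all and 13.3% of marked genes) and PAX8 alone at 16 (19.5%, against 17.2 and 27.1%). Neither factor was present at 34 (41.5%, against 61.8% of all and 41.4% of marked genes).

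Other housekeeping groups had shares of the same order. Within 1 kb NKX2.1 was found at 26.9% and PAX8 at 48.7% of 78 mitochondrial RP genes, at 42.9 and 71.4% of 21 TOP translation factors, at 30 and 53.3% of 30 ribosome assembly factors, at 38.7 and 35.5% of 31 proteasome subunits and at 51.4 and 48.6% of 37 respiratory chain subunits. PAX8 exceeded NKX2.1 by more than 20 points in the first 3 of these groups, whereas both factors were near 40% in cytosolic RP genes. Of the RP genes, 21 of 48 large subunit genes (43.8%) had NKX2.1 and 22 (45.8%) PAX8, against 10 of 31 small subunit genes (32.3%) for each factor. Within 5 kb NKX2.1 was found at 47 RP genes (57.3%), beside 35.4% of all and 48.8% of marked genes, and PAX8 at 49 (59.8%), beside 42 and 59.9%, so that the PAX8 share matched that of marked genes. Both were found at 34 (41.5%), beside 25.2 and 35.7%, and overlapping peaks at 24 (29.3%), beside 16.8 and 22.8%. Rpl22l1 and Rpl7l1 had peaks of both factors within 1 kb and Rps3a1 of NKX2.1 only.

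**Figure D4:**
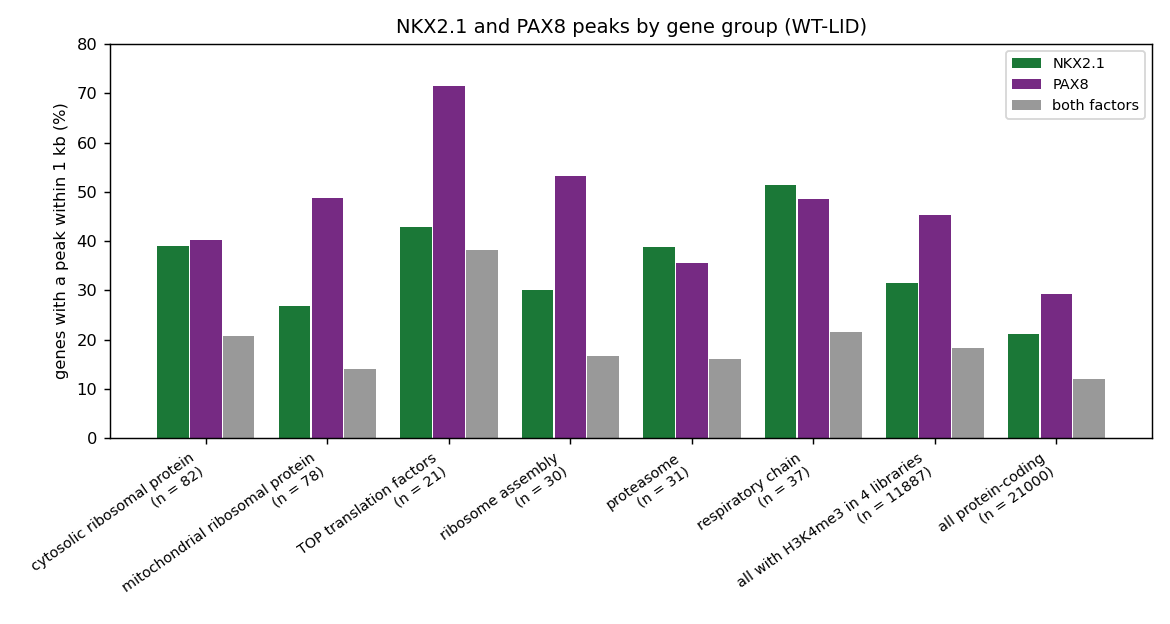
Share of genes with an NKX2.1 peak, a PAX8 peak or both within 1 kb of a start site (y axis, %) in cytosolic RP genes, comparison groups, genes with H3K4me3 in all 4 libraries and all protein-coding genes (x axis, n under each group), 1 library per factor. Cytosolic RP genes stand at 39% for NKX2.1 and 40.2% for PAX8, and TOP translation factors at 42.9% and 71.4%.

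The peaks sat close to the start site. The midpoint of the nearest NKX2.1 peak lay within 100 bp of a start site in 16 of the 32 RP genes (50%) against 28.2% of all genes with a peak, and upstream of it in 26 (81.2%) against 61.4%. For PAX8 the midpoint lay within 100 bp in 15 of 33 RP genes (45.5%) against 31.5%, and upstream in 23 (69.7%) against 51.5%. The median offsets were -74 bp for NKX2.1 and -54 bp for PAX8 in RP genes, against -65 and -7 bp in all genes with a peak. Of the 32 NKX2.1 peaks 27 and of the 36 PAX8 peaks 31 overlapped an H3K4me3 peak in all 4 histone libraries. A high overlap was to be had from the choice of peaks, since 78 of the 82 RP genes were marked in all 4 libraries. For 4 NKX2.1 and 4 PAX8 peaks the start site of another gene was nearer, as for the NKX2.1 peak of Rps18, 5 bp from the start of Vps52, and the PAX8 peak of Rps27a, 6 bp from the start of Clhc1. Neither count was made for TF peaks at other promoters, so both stand without a background.

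**Figure D5:**
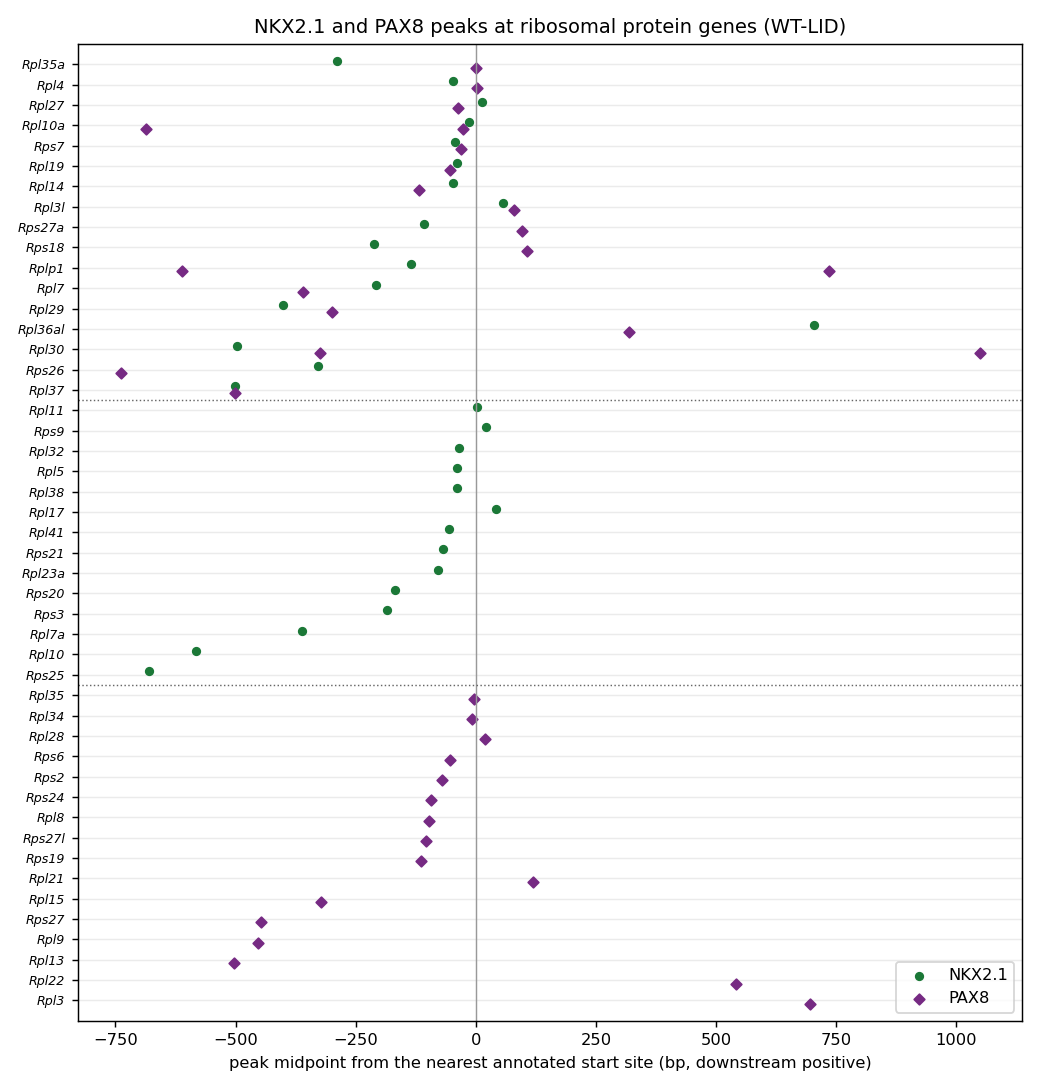
Midpoints of NKX2.1 and PAX8 peaks relative to the nearest annotated start site (x axis, bp, downstream positive) for 47 of the 48 RP genes with a peak within 1 kb (y axis), with the 17 genes of both factors above the upper dotted line, 14 with NKX2.1 only between the lines and 16 with PAX8 only below. Most midpoints lie upstream and close to 0.

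At the 13 genes with overlapping peaks the midpoints were a median of 81 bp apart, with a range of 0 to 289 bp. Overlapping peaks of 300 bp must have midpoints less than 300 bp apart, and overlapping pairs at other genes were not measured. At Rps7, which binds Mdm2 and is a gene of Diamond-Blackfan anaemia, the NKX2.1 peak (chr12:28635847-28636146) and the PAX8 peak (chr12:28635836-28636135) had their midpoints at -43 and -32 bp. At Rpl4 the NKX2.1 midpoint was 47 bp upstream (chr9:64173191-64173490) and the PAX8 midpoint 2 bp downstream in the untranslated part of exon 1 (chr9:64173240-64173539). At Rpl27 they were 13 bp downstream (chr11:101442109-101442408) and 37 bp upstream (chr11:101442059-101442358). At these 3 genes the 300 bp peaks of both factors spanned the start site, which does not place the bound bases within the peak. At Rpl10a the overlapping midpoints were 14 bp upstream for NKX2.1 (chr17:28328308-28328607) and 27 bp upstream for PAX8 (chr17:28328389-28328688) of 2 annotated starts, with a second PAX8 peak 687 bp upstream. At Rpl14 they were 47 bp upstream for NKX2.1 (chr9:120571321-120571620) and 119 bp upstream for PAX8 (chr9:120571249-120571548).

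At Rpl37 both lists gave the same 300 bp (chr15:5115962-5116261), 502 bp upstream and outside the H3K4me3 peaks of 1 of the 4 libraries. At Rpl29, which encodes eL29, the midpoints were 401 bp upstream for NKX2.1 (chr9:106428861-106429160) and 300 bp for PAX8 (chr9:106428962-106429261). At Rpl7, the gene with the longest H3K4me3 peak among the fully covered ones, they were 207 bp upstream (chr1:16104491-16104790) and 359 bp upstream (chr1:16104643-16104942). At Rpl30 NKX2.1 was 498 bp upstream (chr15:34443625-34443924) and PAX8 325 bp upstream (chr15:34443452-34443751), with a second PAX8 peak 1048 bp downstream inside the gene. At Rpl19 the midpoints of the NKX2.1 peak (chr11:98026736-98027035) and the PAX8 peak (chr11:98026507-98026806) each lay less than 60 bp upstream of an annotated start. Rpl19 was only 1 of 27 RP genes with a lower Glis3KO value of H3K4me3 within each diet (34.6%, beside 33% of marked genes). At Rps27a the NKX2.1 midpoint was 108 bp upstream (chr11:29547999-29548298) and the PAX8 midpoint 96 bp downstream (chr11:29547795-29548094). At Rpl35a NKX2.1 was centred 289 bp upstream (chr16:33056015-33056314), 22 bp from the start of Iqcg, and PAX8 exactly on the start of Rpl35a (chr16:33056304-33056603).

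The muscle paralog Rpl3l was the only gene without H3K4me3 among the 48 with a TF peak. Its NKX2.1 peak (chr17:24732593-24732892) and PAX8 peak (chr17:24732616-24732915) were 23 bp apart and lay at a second annotated start, inside intron 4 of the longer transcript. No H3K4me3 peak of any library overlapped them. The remaining genes with both factors had peaks that did not overlap, namely Rplp1, Rps18, Rps26 and Rpl36al. At Rplp1 an NKX2.1 peak 134 bp upstream (chr9:61914495-61914794) stood between PAX8 peaks 611 bp upstream (chr9:61914972-61915271) and 734 bp downstream in intron 2 (chr9:61913627-61913926). At Rps26 the midpoints were 329 bp upstream for NKX2.1 (chr10:128626686-128626985) and 739 bp upstream for PAX8 (chr10:128627096-128627395), and at Rpl36al 704 and 319 bp downstream in intron 1 (chr12:69183214-69183513 and chr12:69183599-69183898). At Rps18 they were at -212 bp (chr17:33955728-33956027) and at 106 bp in intron 1 (chr17:33955410-33955709).

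Among the genes with NKX2.1 only, the midpoint was nearest the start at Rpl11 (2 bp downstream, chr4:136053242-136053541), Rps9 (22 bp downstream, chr7:3703914-3704213), Rpl32 (36 bp upstream), Rpl5 (39 bp upstream, chr5:107900340-107900639) and Rpl38 (40 bp upstream, chr11:114668391-114668690). The NKX2.1 peak of Rpl38 spanned the start site and did not overlap the H3K27me3 peak of Glis3KO-LID. The other 10 included Rpl17, Rpl41, Rps21, Rpl23a, Rps20, Rps3, Rpl7a, Rpl10 and Rps25. Among the genes with PAX8 only it was nearest at Rpl35 (4 bp upstream, chr2:39004986-39005285), Rpl34 (9 bp upstream, chr3:130730258-130730557), Rpl28 (20 bp downstream, chr7:4792836-4793135), Rps6 (53 bp upstream, chr4:86857271-86857570) and Rps2 (71 bp upstream, chr17:24719843-24720142). The other 11 were Rps24, Rpl8, Rps27l, Rps19, Rpl21, Rpl15, Rps27, Rpl9, Rpl13, Rpl22 and Rpl3. Of the genes followed for other roles, Rpl5 and Rpl11 had NKX2.1 only and Rps6 and Rps19 had PAX8 only. Rps27a and Rplp1 had both factors, and Rps14, Rpsa, Rplp0 and Rplp2 had neither. Over all RP genes 39% had NKX2.1, 40.2% had PAX8 and 41.5% had neither.

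The 200 bases before the start are printed for 2 of these genes, Rps7 with both factors and Rpl35 with PAX8 only, since their peaks overlap this stretch. Capitals mark CCGGAAG or TCTCGCGA on either strand, the 2 motifs whose share in RP promoters was farthest above that of other promoters.
Rps7 (chr12:28635954-28636153, minus strand): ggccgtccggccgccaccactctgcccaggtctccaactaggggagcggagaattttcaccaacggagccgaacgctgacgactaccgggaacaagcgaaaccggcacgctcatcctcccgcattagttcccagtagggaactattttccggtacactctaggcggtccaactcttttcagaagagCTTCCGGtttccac
Rpl35 (chr2:39005132-39005331, minus strand): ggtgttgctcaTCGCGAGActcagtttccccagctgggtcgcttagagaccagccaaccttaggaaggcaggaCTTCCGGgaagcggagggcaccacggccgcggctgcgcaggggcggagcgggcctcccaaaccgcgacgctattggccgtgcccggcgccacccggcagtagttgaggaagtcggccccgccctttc
Both stretches held a CCGGAAG core, which began 14 bp before the start at Rps7 and 127 bp at Rpl35.

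Inside the peaks the same letters were counted. CCGGAAG was present in 10 of the 32 NKX2.1 peaks at RP genes (31.2%), against 11.7% of the 4485 NKX2.1 peaks within 1 kb of any start site and 2.48% of all NKX2.1 peaks. TCTCGCGA was present in 4 (12.5%) against 1.2 and 0.135%. CTCAAG was present in 2 (6.25%) against 27.4 and 33.6%, and CACTTG in 5 (15.6%) against 21.1 and 32.4%. For CACTTG the gap to other promoter peaks amounts to few peaks, and none of these shares was tested. For PAX8, CCGGAAG was present in 10 of the 36 peaks (27.8%), against 11.4% of the 6369 PAX8 peaks within 1 kb of any start site and 2.86% of all PAX8 peaks. GTCATG was present in 3 (8.33%) against 8.95 and 18.2%. CCGGAAG did not separate RP promoters with and without a factor, being present in 37.5% of those with NKX2.1, 36.4% of those with PAX8 and 38.2% of those with neither.

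H3K4me3 was set beside the TF classes, with the caution on the source of the mice. The 32 marked RP genes with PAX8 had median covered bases of 1688 bp in Glis3KO-LID, 1807 bp in WT-LID, 1789 bp in Glis3KO-ND and 1750 bp in WT-ND. The 31 with NKX2.1 had 1276, 1568, 1534 and 1645 bp, and the 31 with neither factor 1364, 1666, 1593 and 1560 bp. The classes share 16 genes that have both factors. Of the 12 genes with a neighbour's main start site within 1 kb, 7 (58.3%) had NKX2.1 and 7 had PAX8. The shares were 36.4 and 37.9% among the other 66 marked RP genes. The part of these neighbours in the wider H3K4me3 of the PAX8 class was not tested.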

How the data were processed

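Peak lists of 10 mouse thyroid libraries were used. Per the labels and the study's methods, the authors trimmed reads (Cutadapt 1.12), aligned them to mm10 allowing only unique hits (Bowtie 1.2), discarded duplicates (Picard 1.110) and ran HOMER 4.10.3 to call peaks, those of TFs against their own input. The submitters' processing notes also name bedtools 2.24.0. Unique hits can thin reads where an RP gene resembles its processed copies, and this was not tested. The deposited lists hold coordinates and peak names, with no counts, scores or p-values. The 3 lists of rat PCCl3 cells and the 2 combined lists were not used here.

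Start sites came from curated RefSeq transcripts on GRCm38. A gene was marked or bound when a peak overlapped 1 kb either side of any start site by at least 1 bp, and covered bases were counted within 1 kb either side of the RefSeq Select start. Python 3.11.15, numpy 2.4.6, pandas 2.3.3 and pysam 0.24.0 were used. The counting was tested on simulated intervals. Groups of 1 library allow no test, so RP genes are described beside all protein-coding genes. The members and gene lists were chosen with earlier results of these data known. Named were all RP genes with a TF peak, with H3K27me3 or without H3K4me3, the 5 widest and narrowest marked ones, the 5 largest losses and gains seen on both diets, and 10 genes known for other roles. A few genes and sequences that this rule covers are not reported here, although the counts include them. A name added later was that of a neighbouring gene or a parent gene. Of the 82 promoters, 62 matched an entry of the RefSeq promoter table, and all printed sequences were read from the GRCm38 genome. Alternatives covered the window, start site, member list, background, centring and, for H3K27me3, the widest peaks only.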

Additional observations from a re-analysis of the deposited data

Results flagged for a closer look

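In 5 genes of the list followed for their other roles, the difference in H3K4me3 covered bases between Glis3KO and WT had opposite signs on the LID and the ND. With 1 library per group these differences between the diets were not tested. Glis3KO minus WT was -123 bp on the LID and 104 bp on the ND at Rps6, -33 and 130 bp at Rps19, -116 and 18 bp at Rpl5, -159 and 66 bp at Rpl11, and -270 and 89 bp at Rplp2. All 5 were lower in Glis3KO on the LID and higher on the ND. Over all genes marked in both libraries of a diet, 65.2% were lower in Glis3KO on the LID and 43% higher on the ND. Opposite signs were found in 38 of the 78 marked RP genes (48.7%) and in 43.1% of all genes marked in the 4 libraries.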

How the results depend on the processing

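Of 77 alternative values for 24 results, 71 kept their direction and stayed within 1.5 times of a count or within the 95% binomial interval of the median or share over genes, which covers genes and not animals. Some of the 71 could not move. For Glis3KO minus WT, the limit to genes marked in all 4 libraries kept the same 78 RP genes. Centring that difference on the ND subtracted a median of 0 bp. With a 5 kb window the number of RP genes with H3K27me3 was 9 in Glis3KO-LID (11%, against 22.9% of all genes) and 1 in Glis3KO-ND (1.22%, against 10.6%), and that with both TFs was 34. Centred on the median difference of all genes, Glis3KO minus WT covered bases on the LID had a median of 32 bp at RP genes, so the sign turned. Against genes with H3K4me3 in all 4 libraries, the excess over the background was 7.52 percentage points for NKX2.1 (17.9 against all genes) and -5.11 points for PAX8 (11 against all genes), so the sign turned for PAX8. No paired analysis was possible because each group has 1 library, and for the same reason no library could be left out. Without scores no stricter peak threshold could be set, and the depth behind the lists is unknown.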
